A study of Mus musculus with 6 samples.

Results

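The interferon gamma (IFN-γ) signalling axis was followed through 7 genes, chosen by name: the ligand Ifng, the receptor chains Ifngr1 and Ifngr2, the receptor-bound kinases Jak1 and Jak2, the target transcription factor Irf1 and the feedback inhibitor Socs1. All 7 were found among the 32285 genes of the count tables. The question was which cell types of the tumor carried each transcript and whether the levels differed between the treatments.

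The samples were cells isolated with CD45 beads from tumors of B16-F10, a mouse melanoma line, grown in female C57BL/6 mice aged 6 to 10 weeks. The groups compared were αPD-1 (n = 3) and αPD-1 + corin (n = 3). Both groups received 150 μg of anti-PD-1 antibody clone 29F.1A12 per mouse 3 times a week from day 7 after grafting. To this the combination added corin, a small-molecule inhibitor of the CoREST complex, at 200 μg per mouse daily from day 6, while mice without corin were given 5% DMSO in PBS. The labels do not give which animals, or how many, stand behind each sample, so p-values measure the spread between these 6 samples. Tumors were frozen as cell suspensions and thawed before sorting, and samples without anti-PD-1 are not analysed here. A grafted line is also a single cell population, so the melanoma values describe B16-F10 only.

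IFN-γ is secreted mainly by activated CD8 T cells, type 1 helper CD4 T cells and natural killer (NK) cells. It binds a receptor built of IFNGR1, which holds the ligand and JAK1, and IFNGR2, which brings JAK2. The signal of the kinases reaches gamma-activated sequences (GAS) near genes such as Irf1 and Socs1. IRF1 then turns on antigen presentation genes, and SOCS1 blocks the kinases.

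Because the pathway acts through GAS elements, the promoters of the target and of the inhibitor are shown, with the letters of the GAS core motif TTCNNNGAA in capitals. The motif is its own reverse complement, so 1 search covers both strands. Both sequences run 5′ to 3′ from 250 bases before the start of the Ensembl canonical transcript, from the GRCm39 genome and its GENCODE annotation. Irf1 is the stretch chr11:53660591-53660890 on the plus strand, and Socs1 is chr16:10603826-10604125 on the minus strand.
Irf1: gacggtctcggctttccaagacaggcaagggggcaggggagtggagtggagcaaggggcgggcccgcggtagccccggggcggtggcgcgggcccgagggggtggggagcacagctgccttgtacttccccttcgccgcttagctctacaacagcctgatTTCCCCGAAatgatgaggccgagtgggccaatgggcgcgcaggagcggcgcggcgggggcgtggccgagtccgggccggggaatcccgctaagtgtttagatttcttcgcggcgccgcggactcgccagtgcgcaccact
Socs1: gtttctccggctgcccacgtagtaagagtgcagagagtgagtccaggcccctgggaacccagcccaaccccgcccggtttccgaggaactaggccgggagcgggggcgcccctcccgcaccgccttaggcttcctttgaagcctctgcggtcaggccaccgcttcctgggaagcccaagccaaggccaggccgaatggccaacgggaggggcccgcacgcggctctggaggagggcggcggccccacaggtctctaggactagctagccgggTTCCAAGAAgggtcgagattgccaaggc
In Irf1 the match, TTCCCCGAA, starts at -90 relative to the transcript start. The Socs1 match, TTCCAAGAA, lies within the transcript at 22 bases from the start. Jak2 (TTCGCAGAA at -138) and Ifng (TTCAGAGAA at -249) also hold a match, while the windows of Ifngr1, Ifngr2 and Jak1 do not. The motif was found in 4 of the 7 windows (57.1%), in 13 of 45 promoters of genes that IFN-γ is known to induce (28.9%) and in 1918 of 21757 protein-coding promoters (8.82%). A match describes these letters only, not binding.

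All 7 genes are protein-coding. Ifngr1 (chr10:19467697-19485977) and Ifng (chr10:118276951-118281797) share a chromosome, as do Socs1 (chr16:10600104-10603875, minus strand) and Ifngr2 (chr16:91343906-91362512). Jak1 lies at chr4:101008838-101122487 on the minus strand, Irf1 at chr11:53660812-53669200 and Jak2 at chr19:29228677-29290505, all in GRCm39.

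Of 52899 barcodes, 28865 cells were kept and grouped into classes by marker genes. Library totals ranged from 52281422 to 84276739 unique molecular identifiers (UMIs, 1 per captured transcript), and 299 barcodes occurred in more than 1 library. In every class tested, a single marker list was checked, and all its markers were detected in at least 10% of cells and stood above other cells. It was the T cell list for CD8 and CD4 T cells, the macrophage list for monocytes/macrophages and that of a subset (cDC2) for dendritic cells. T cells were divided per cell by Cd8a, Cd8b1 and Cd4 UMIs, which left 1940 CD8 T and 410 CD4 T cells and 1433 other T cells. Beside them stood 464 NK cells, 11600 monocytes/macrophages, 1406 dendritic cells, 1882 melanoma cells and 988 fibroblasts. A CD45 transcript (Ptprc) was seen in 4.89% of melanoma cells and 9.31% of fibroblasts, against 74.8% of monocytes/macrophages, so the sorted samples held cells without the marker of the sort. Cells with markers of several lineages (2874) or with no clear name (95) were left out of the classes. Corin replicate 1 had 64 CD8 T cells and replicate 3 had 782, so the precision of the T cell values differs between samples.

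Levels are UMIs of a gene scaled to 1000000 UMIs of the class in a sample (CPM), and cells of a sample were summed so that samples are the replicates. Treatment was tested per class with edgeR's quasi-likelihood test, adjusted over all genes of the class with a threshold of 0.05. In sums over a class, fewer expressing cells and less RNA per cell cannot be told apart. Of 43 tests of a member in a class, 2 passed, Ifngr1 and Socs1 in CD4 T cells, 9 had an unadjusted p under 0.05 and DESeq2 called 2. Both were higher with corin, 2 of the 6 members tested in CD4 T cells, where 4.7% of all genes passed and 1.9% passed as higher. No member passed in the other classes, where edgeR called 6.88% of all genes in CD8 T cells, 0.657% in NK cells, 0.242% in monocytes/macrophages, 0.636% in dendritic cells, 0.0% in melanoma cells and 2.06% in fibroblasts. Members with an unadjusted p under 0.05 and members called by DESeq2 numbered 2 and 0 in CD8 T cells, 0 and 0 in NK and melanoma cells, 1 and 0 in monocytes/macrophages and in fibroblasts, and 2 and 1 in dendritic cells. Of all genes tested, 7.19% in melanoma cells to 23.3% in fibroblasts had an unadjusted edgeR p under 0.05. The share was 22.7% in CD8 T, 11.4% in NK and 12.7% in dendritic cells and 18.8% in monocytes/macrophages, and CD4 T cells lay within that range. Counts of list genes at this p in a class, given below, are to be read beside these shares. B cells, neutrophils and endothelial cells had too few cells in a sample (12 to 14) to be tested. Other T cells and plasmacytoid dendritic cells were not among the classes tested. The plot of levels shows that the ligand and both receptor chains were spread over different cell types.

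**Figure D1:**
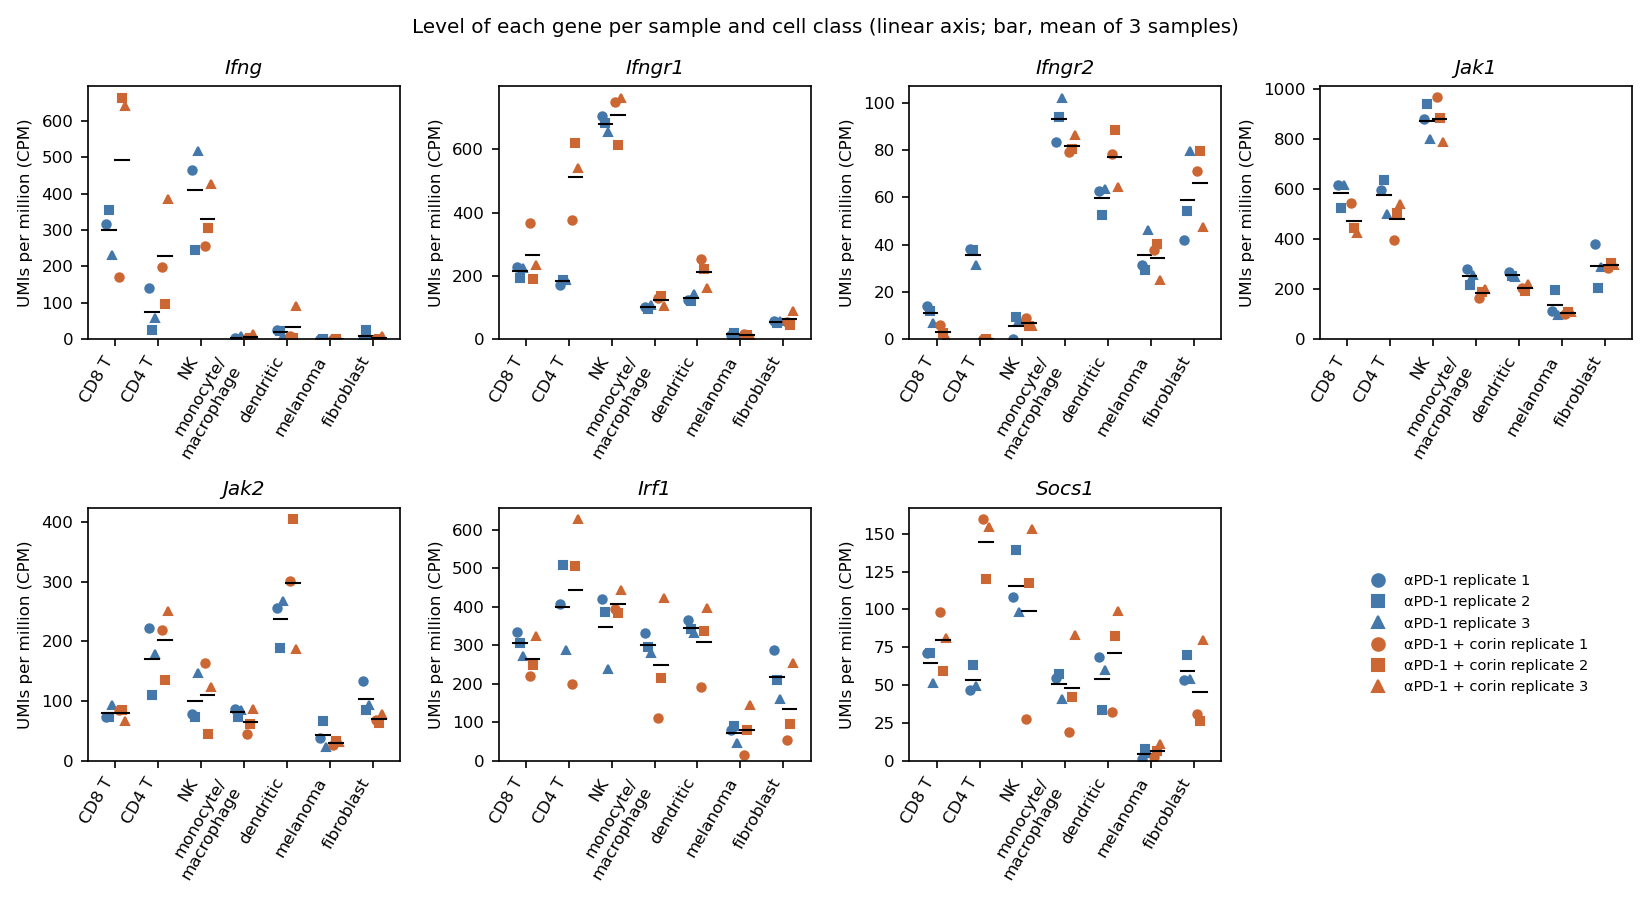
Level of each of the 7 genes (CPM, linear axis) in 7 cell classes, with 1 point per sample, αPD-1 in blue and αPD-1 + corin in orange, and a bar at the mean of 3 samples. Mean levels of Ifng were highest in T and NK cells and those of Ifngr2 in monocytes/macrophages, dendritic cells and fibroblasts. Melanoma cells were lowest for Ifngr1, at 11.8 to 21.3 CPM.

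Ifng, the ligand, had its highest levels in NK and CD8 T cells, and its level in CD8 T cells was high in 2 of the 3 corin samples. In CD8 T cells it was at 315, 355 and 231 CPM with αPD-1 and at 172, 662 and 640 CPM with αPD-1 + corin. The corin samples thus held both the lowest and the highest values, and the groups overlapped. The difference of 0.85 on the log2 scale (SE 0.29) did not pass the edgeR test (adjusted p = 0.0971). Without corin replicate 1, the lowest sample, the difference was 1.15, with an edgeR adjusted p of 0.00205. Leaving out the lowest corin value raises the difference by itself, so this fit does not replace the test on all samples.

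In CD4 T cells Ifng was lower: 140, 26.0 and 58.3 CPM with αPD-1 and 199, 98.0 and 386 CPM with αPD-1 + corin. One αPD-1 sample lay above the lowest corin sample. The log2 difference of 1.45 (SE 0.48) missed the threshold as well (edgeR adjusted p = 0.0983). It rests on few molecules, 70 Ifng UMIs from 301 cells against 68 UMIs from 109 cells, and it ranged from 0.65 without corin replicate 3 to 2.39 without αPD-1 replicate 1. NK cells had 464, 246 and 516 CPM with αPD-1 and 256, 307 and 427 CPM with αPD-1 + corin, a log2 difference of -0.14 (SE 0.23, edgeR adjusted p = 0.874). These groups overlapped fully.

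The share of cells with an Ifng UMI was compared after each cell was thinned to 1000 UMIs, since deeper cells show more genes. In CD8 T cells the share was 14.4% ± 2.20 (SD, n = 3) with αPD-1 and 27.9% ± 8.91 (SD, n = 3) with αPD-1 + corin (two-sided exact permutation p = 0.1, Benjamini-Hochberg p = 0.15 over 3 classes). The αPD-1 samples stood at 13.3%, 16.9% and 12.97% and the corin samples at 17.7%, 31.7% and 34.3%. Every corin sample was above every αPD-1 sample, and 0.1 is the smallest p that 3 against 3 samples allow. Before thinning the shares were 25.8%, 37.7% and 24.9% against 31.2%, 67.9% and 65.5%, with median depths of 1950 to 5425 UMIs per cell. Monocytes/macrophages, which should lack Ifng, gave 0.111% to 0.860%, and melanoma cells no more than 0.253%, at depths of 3145 to 4745 and 2822 to 5550 UMIs.

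CD4 T cells went from 4.48% ± 2.96 to 15.2% ± 4.65 (SD, n = 3 each, exact permutation p = 0.1, Benjamini-Hochberg p = 0.15). Unthinned, their shares were 12.7%, 7.48% and 6.58% against 28.6%, 21.6% and 29.7%. NK cells were at 23.7% ± 9.30 and 22.5% ± 3.22 (SD, n = 3 each, exact permutation p = 0.8). Across the T cells and NK cells the shares were thus many times those of the cells that should lack the gene.

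Which T cells were sampled differed strongly between the treatments. Cells in naive-like clusters, named from a marker list that includes Tcf7, Lef1 and Ccr7, made up 66.2%, 50.1% and 51.3% of CD8 T cells with αPD-1 and 17.2%, 23.1% and 10.1% with αPD-1 + corin. Outside those clusters the thinned Ifng shares of CD8 T cells were 28.3%, 29.3% and 24.0% against 21.5%, 30.1% and 35.7%. There the groups overlapped, and the difference was 1.88 percentage points (exact permutation p = 0.8). Over all T cells of the naive-like clusters, of which 11, 31 and 79 were CD8 T cells among 40, 84 and 274 in the corin samples, Ifng was at 82.4, 90.7 and 65.1 CPM with αPD-1 and at 214, 325 and 334 CPM with αPD-1 + corin. The part of cluster makeup in the difference was not tested.

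Over all immune cells, Ifng made up 69.8, 88.7 and 53.6 CPM with αPD-1 and 11.8, 70.2 and 235 with αPD-1 + corin. The means were 70.7 ± 17.5 and 106 ± 116 (SD, n = 3 each, exact permutation p = 0.8). Corin replicates 1 and 3 were the lowest and the highest of the 6 samples, and they also had the fewest and the most CD8 T cells. Over all deposited barcodes the values were 48.2, 65.4 and 21.8 against 5.28, 29.4 and 88.7, so the sign of the mean difference changed, to -4.00. It also changed without corin replicate 3, to -29.7.

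CD8 T cells held 24.4% to 45.4% of all Ifng UMIs with αPD-1, and 9.36%, 41.4% and 55.3% with αPD-1 + corin. NK cells, few in number, held 3.51% to 9.36% over all samples. Corin replicate 1 had 299 Ifng UMIs in all, of which 28 came from CD8 T cells (Wilson 95% interval 6.56% to 13.2%). Cells with markers of several lineages held 32.2% to 44.4% with αPD-1 and 13.04% to 24.9% with αPD-1 + corin. The intervals cover counting error only.

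Neutrophils held 19.4% and 27.6% of the Ifng UMIs in corin replicates 1 and 2, where they were numerous (737 and 1247 cells). The Ifng level in neutrophils was 136, 0 and 0 CPM with αPD-1 and 20.3, 60.7 and 188 CPM with αPD-1 + corin, where the 2 counts of 0 come from 14 and 22 cells and allow up to 50.7 and 36.9 CPM. T cell markers summed to 734, 101 and 111 CPM and to 362, 668 and 1304 CPM in the same neutrophil sums, and to 2973 CPM or more in CD4 T and CD8 T cells. The samples with over 111 CPM of T cell markers in their neutrophils were those with Ifng there, and their part in the result was not tested.

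**Figure D2:**
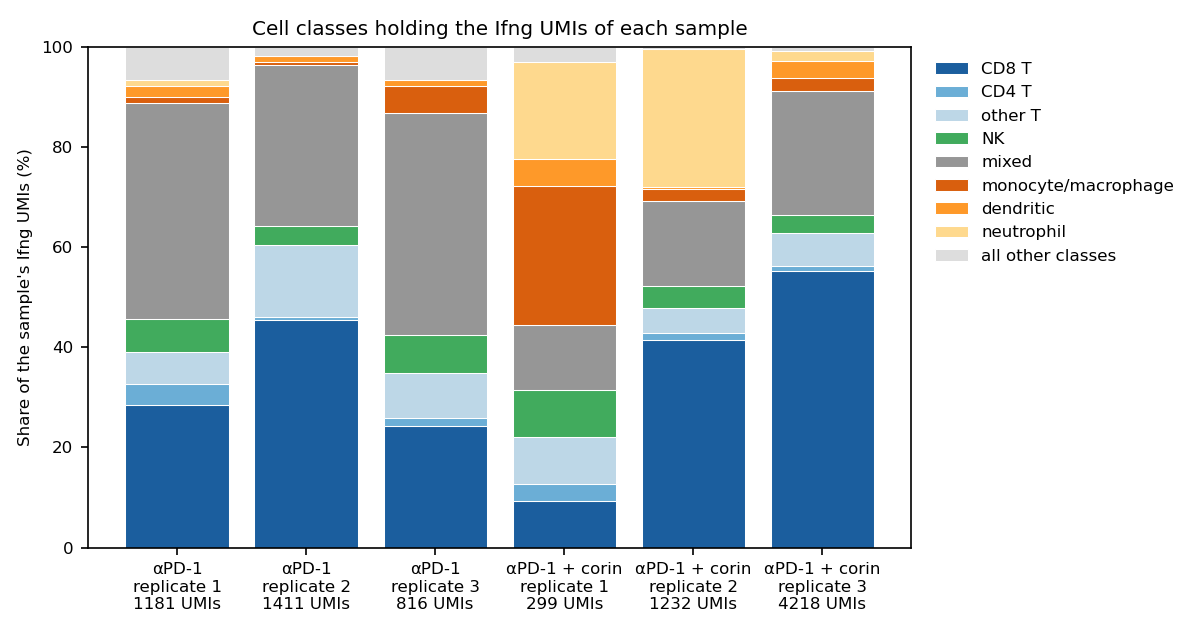
Share of all Ifng UMIs of a sample (percent) held by each cell class, as 1 stacked bar for each of the 3 αPD-1 and 3 αPD-1 + corin samples. CD8 T cells held 55.3% in corin replicate 3 but 9.36% in corin replicate 1, where monocytes/macrophages held 27.8%.

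The CD8 T cells with an Ifng UMI were compared with those without, within each of the 6 samples, to describe what Ifng-bearing cells share. Cells with a UMI numbered 81, 142 and 67 with αPD-1 and 20, 91 and 512 with αPD-1 + corin. Of 6586 genes, 369 were higher (5.6%) and 592 lower (8.99%) in cells with Ifng by edgeR. Genes were named if they had at least 50 CPM and 1 direction in every sample. The 8 higher ones with the largest changes were Ccl3, Gzmc, Ccl4, Nrn1, Prf1, Tnfrsf9, Rgs16 and Serpine2. Ccl3 and Ccl4, chemokines of activated T cells, rose by 2.71 (SE 0.20) and 2.10 (SE 0.26) on the log2 scale. Prf1, the pore-forming protein of cytotoxic granules, rose by 1.48 (SE 0.20), and Tnfrsf9, an activation receptor also called 4-1BB, by 1.43 (SE 0.22). Each was higher in 6 of 6 samples, which the naming rule required.

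Lower in cells with Ifng were Dapl1, Tcf7, Ccr7, Nsg2, Cmah, Aff3 and Id3, each in 6 of 6 samples by the same rule. Tcf7, the transcription factor of naive and memory-like T cells, fell by 2.50 (SE 0.19) and Ccr7, the lymph node homing receptor, fell by 2.33 (SE 0.23). Cells with Ifng were deeper, with medians of 5304 and 4506 UMIs per cell in the αPD-1 and corin groups against 2287 and 2502 without. With every cell thinned to 1000 UMIs 282 genes passed, and outside naive-like clusters 72 did. After thinning Ccl3 (2.78), Ccl4 (2.36), Prf1 (1.44), Tnfrsf9 (1.41) and Tcf7 (-2.01) still passed. Whether a cell had an Ifng UMI was set before thinning, so the part of depth in that choice was not tested.

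Among the other members, Irf1 was lower in cells with Ifng (-0.49, SE 0.13, edgeR adjusted p = 0.0161), as was Jak1 (-0.35, SE 0.12, edgeR adjusted p = 0.047). Neither passed after thinning (edgeR adjusted p = 0.185 and 0.291) or outside naive-like clusters. Ifngr1 stood at 238 and 243 CPM in the states with and without Ifng (log2 difference -0.05, SE 0.13).

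Ifngr1, the ligand-binding receptor chain, was highest in NK cells and rose in CD4 T cells with corin. NK cells had 705, 683 and 655 CPM with αPD-1 and 750, 614 and 762 CPM with αPD-1 + corin. In CD4 T cells the level was 173, 188 and 188 CPM with αPD-1 and 379, 621 and 541 CPM with αPD-1 + corin. Every corin sample lay above every αPD-1 sample. In CD4 T cells the groups did not overlap, in either direction, for 22.9% of all genes tested. The log2 difference was 1.52 (SE 0.21), a 2.87-fold higher level, and passed the edgeR test (adjusted p = 0.000151). It stayed past the threshold without each sample in turn, with log2 differences of 1.37 to 1.64. In the same CD4 T sums, neutrophil markers were at 3228 CPM in corin replicate 1, which had 21 cells, and at no more than 147 CPM in the other samples.

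The makeup of CD4 T cells also differed between the groups. Naive-like clusters held 63.6%, 62.6% and 48.7% of them with αPD-1 and 4.76%, 7.84% and 10.8% with αPD-1 + corin. Regulatory (Treg)-like clusters, named from a marker list that includes Foxp3 and Il2ra, held 23.7%, 26.2% and 40.8% against 85.7%, 70.6% and 70.3%. They also held CD8 T cells, 19, 19 and 38 with αPD-1 and 27, 18 and 61 with αPD-1 + corin. The CD4 T cells in them numbered 28, 28 and 31 against 18, 36 and 26. Whether the cells of these clusters are regulatory was not tested. Outside the naive-like clusters the Ifngr1 difference was 1.16 (edgeR adjusted p = 0.0113). Over all T cells of the Treg-like clusters, with or without Cd4 UMIs, Ifngr1 was at 308, 314 and 261 CPM with αPD-1 and at 501, 487 and 470 CPM with αPD-1 + corin. Over all T cells of the naive-like clusters it was at 234, 217 and 231 CPM against 330, 459 and 525 CPM. The groups did not overlap in either kind of cluster, but only 1, 4 and 4 CD4 T cells of the corin samples were naive-like, so the latter values do not describe CD4 T cells. With CD4 T cells taken from cluster names in place of Cd4 UMIs, the difference was 0.75 and the call was lost (edgeR adjusted p = 0.0843).

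CD8 T cells had 228, 193 and 224 CPM of Ifngr1 with αPD-1 and 369, 192 and 235 CPM with αPD-1 + corin (log2 difference 0.23, SE 0.19). Other T cells, a class not tested, ranged from 264 to 296 CPM with αPD-1 and from 434 to 523 CPM with αPD-1 + corin. The difference between the effects in CD4 and CD8 T cells, 1.33 (SE 0.30), did not pass (edgeR adjusted p = 0.127). In that comparison 0.0659% of all genes passed. Corin replicate 1, the high value among CD8 T cells, had 42.2% of its CD8 T cells in Treg-like clusters, against 5.04% to 14.1% in the other samples.

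Dendritic cells, which present antigen to T cells, had 126, 121 and 144 CPM of Ifngr1 with αPD-1 and 253, 223 and 162 CPM with αPD-1 + corin. The groups did not overlap, as for 18.1% of all genes tested in dendritic cells. The log2 difference of Ifngr1 was 0.79 (SE 0.18, edgeR adjusted p = 0.112). This is the member that DESeq2 called in dendritic cells (adjusted p = 0.0413). Neutrophil markers summed to 283, 160 and 149 CPM in the dendritic cells with αPD-1 and to 1043, 935 and 175 CPM with αPD-1 + corin, so they were highest in the same 2 samples, and their part was not tested. Monocytes/macrophages were at 102, 96.9 and 110 CPM against 131, 138 and 106 CPM (log2 difference 0.43, SE 0.14, edgeR adjusted p = 0.181). There too neutrophil markers were high in corin replicates 1 and 2, at 114, 109 and 121 CPM against 831, 1103 and 204 CPM, and their part was not tested. Without corin replicate 3 the difference passed in both, at 0.97 in dendritic cells and 0.54 in monocytes/macrophages. That fit also called the most genes in each of these classes among the fits that left out a sample, as given at the end. Melanoma cells held little Ifngr1, 11.8 to 21.3 CPM, with a log2 difference of 0.07 (SE 0.32).

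Ifngr2, the signalling receptor chain, lay opposite to Ifngr1, high in myeloid cells and low in T and NK cells. Monocytes/macrophages had 83.6, 94.0 and 102 CPM with αPD-1 and 79.0, 80.3 and 86.3 CPM with αPD-1 + corin (log2 difference -0.04, SE 0.12, edgeR adjusted p = 0.873). Endothelial cells stood at 61.7 to 138 CPM. Melanoma cells had 31.6, 29.3 and 46.2 CPM against 38.0, 40.3 and 25.0 CPM (log2 difference -0.09, SE 0.27). Dendritic cells went from 62.9, 52.4 and 63.4 CPM to 78.4, 88.3 and 64.6 CPM, which did not pass (0.44, SE 0.17, edgeR adjusted p = 0.327).

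In CD4 T cells Ifngr2 was at 38.1, 37.6 and 31.4 CPM with αPD-1 and was not seen in any corin sample. A count of 0 allows up to 59.8, 16.3 and 29.0 CPM in the 3 corin samples by themselves, so replicate 1 alone could not show the difference at its depth. Together the corin samples held 0 Ifngr2 UMIs among 337483, which allows up to 8.89 CPM, against 36.3 CPM over the αPD-1 samples. At that limit the corin level would lie 4.08-fold below the αPD-1 value. This is not a lower bound, since the αPD-1 value rests on 33 UMIs and its own counting error is not included. The gene lay below the low-count filter of the class and was not tested there. With no filter on low counts it passed (edgeR adjusted p = 0.00198).

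CD8 T cells showed 14.0, 12.2 and 6.97 CPM of Ifngr2 with αPD-1 and 6.14, 2.60 and 0.823 CPM with αPD-1 + corin. T cells with neither Cd4 nor Cd8 UMIs were at 24.8, 31.0 and 31.0 CPM and at 0, 2.82 and 2.71 CPM. In naive-like clusters the level was 33.8, 40.2 and 35.4 CPM with αPD-1 and 0, 0 and 1.75 CPM with αPD-1 + corin, from 0, 0 and 1 UMIs in 40, 84 and 274 cells. Treg-like and CD8-like clusters were low in both groups, at 0 to 8.27 CPM. Among the 4 named kinds of T cell cluster, Ifngr2 was thus highest in naive-like ones with αPD-1.

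Between monocytes/macrophages and CD8 T cells the fitted effects on Ifngr2 were 2.93 apart on the log2 scale (SE 0.57), with an edgeR adjusted p of 0.00316. The gene lay below the low-count filter of CD8 T cells, with 43 UMIs with αPD-1 and 6 with αPD-1 + corin, and it entered this comparison through its level in monocytes/macrophages. The value is thus given as a description and not as a tested change in CD8 T cells. No other member passed in the 4 comparisons of effects by edgeR, and in this pair of classes 1.71% of all genes did. Without corin replicate 3, which had the most CD8 T cells, the difference was 1.74 (edgeR adjusted p = 0.331). Between melanoma cells and monocytes/macrophages 0.0156% of all genes passed, and between dendritic cells and monocytes/macrophages 0.0609%, none of them a member. At an unadjusted p under 0.05 stood 2 members between CD4 and CD8 T cells, 0 in the melanoma pair and 1 in the dendritic pair, Ifngr2 (0.48, SE 0.21), and DESeq2 was not run on these comparisons.

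**Figure D3:**
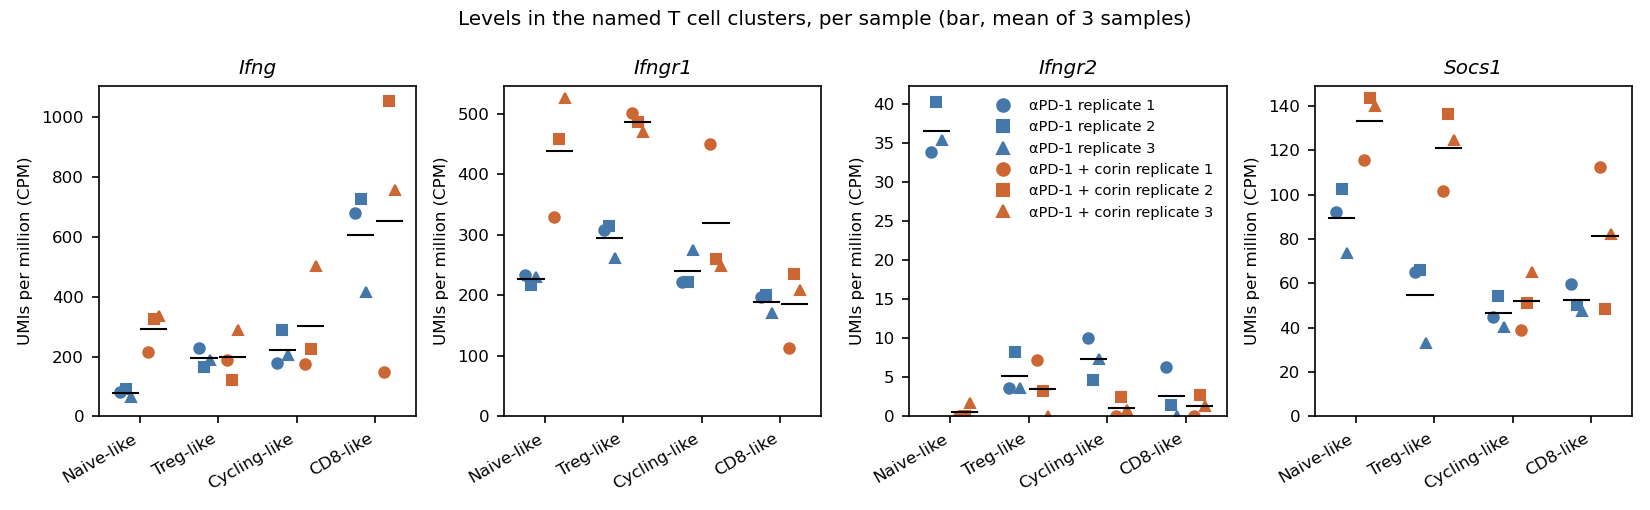
Levels of Ifng, Ifngr1, Ifngr2 and Socs1 (CPM, linear axes) in naive-like, Treg-like, cycling-like and CD8-like T cell clusters, with 1 point per sample, αPD-1 in blue and αPD-1 + corin in orange, and a bar at the mean. Ifngr2 lay at 33.8 to 40.2 CPM in the naive-like clusters of the αPD-1 samples and at 0 to 1.75 CPM in those of the corin samples.

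Jak1, the kinase bound to IFNGR1 and shared with many cytokine receptors, was at 791 to 970 CPM in NK cells, the highest of the 8 classes ranked. T cells with neither Cd4 nor Cd8 UMIs, which were left out of the ranking, had 1072, 846 and 1076 CPM with αPD-1 and 533, 675 and 596 CPM with αPD-1 + corin. These T cells were also left out of the treatment test. In the classes that were tested, no Jak1 difference passed. In monocytes/macrophages it was at 282, 219 and 257 CPM with αPD-1 and 165, 191 and 202 CPM with αPD-1 + corin (log2 difference -0.30, SE 0.14, edgeR adjusted p = 0.292), without overlap. The groups did not overlap for 29.2% of all genes tested in that class. CD8 T cells had 617, 524 and 619 CPM against 547, 444 and 426 CPM (-0.30, SE 0.14, edgeR adjusted p = 0.218). Melanoma cells had the lowest Jak1 of the classes compared, at 96.6 to 200 CPM.

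Jak2, the kinase bound to IFNGR2, was highest in dendritic cells, at 256, 189 and 267 CPM with αPD-1 and 301, 405 and 188 CPM with αPD-1 + corin. There the log2 difference was 0.41 (SE 0.26, edgeR adjusted p = 0.566). Fibroblasts had 134, 85.3 and 94.1 CPM against 68.3, 64.1 and 78.1 CPM, which did not overlap and did not pass (-0.60, SE 0.27, edgeR adjusted p = 0.202). The groups did not overlap for 25.4% of all genes tested in fibroblasts. Melanoma cells were again lowest, at 23.6 to 66.5 CPM.

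**Figure D4:**
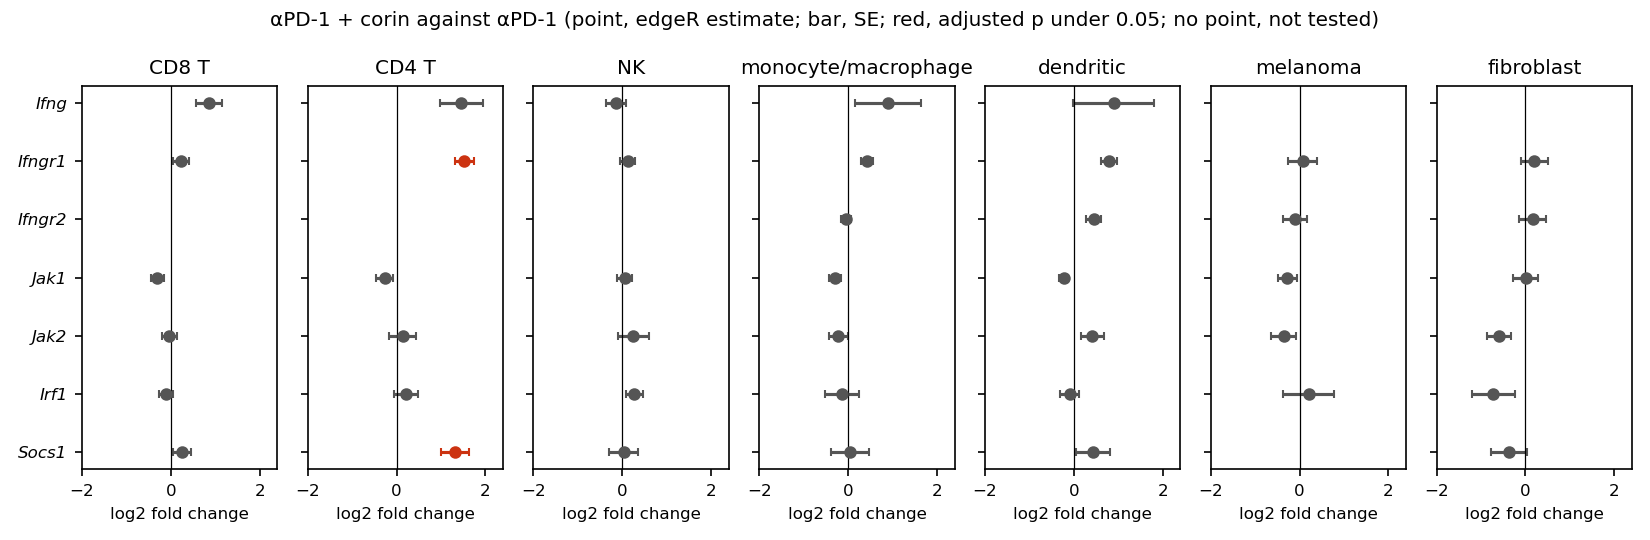
Log2 fold change of each member between αPD-1 + corin and αPD-1 in 7 cell classes (point, edgeR estimate; bar, SE; members without a point were not tested). The red points, Ifngr1 (1.52) and Socs1 (1.32) in CD4 T cells, passed with an adjusted p under 0.05.

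Irf1, the transcription factor induced by IFN-γ, did not differ beyond the spread of samples in any class tested, yet its level varied widely among the corin samples. Monocytes/macrophages had 332, 295 and 280 CPM with αPD-1 and 110, 214 and 423 CPM with αPD-1 + corin (log2 difference -0.14, SE 0.39, edgeR adjusted p = 0.864). Melanoma cells, the tumor targets of IFN-γ, had 80.9, 90.4 and 46.2 CPM and 14.1, 80.1 and 145 CPM (0.20, SE 0.57, edgeR adjusted p = 0.96). In both, corin replicate 1 was the lowest and corin replicate 3 the highest of the 6 samples. Dendritic cells showed the same order, with 366, 342 and 332 CPM against 192, 338 and 398 CPM.

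Fibroblasts had 288, 209 and 160 CPM of Irf1 with αPD-1 and 54.0, 95.4 and 254 CPM with αPD-1 + corin (-0.72, SE 0.48, edgeR adjusted p = 0.378). Without corin replicate 3 the difference passed in fibroblasts (-1.63) and in monocytes/macrophages (-0.76). In both classes that fit also called the most genes of all the fits that left out a sample, as given at the end. In CD8 T cells Irf1 varied less, from 221 to 335 CPM over all 6 samples. Plasmacytoid dendritic cells, known as producers of type I interferon, carried the most, 569 to 809 CPM, and were not tested for treatment.

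Socs1, the feedback inhibitor of the kinases, rose in CD4 T cells with corin. There it was at 46.8, 63.6 and 49.3 CPM with αPD-1 and 159, 120 and 154 CPM with αPD-1 + corin. Every corin sample was above every αPD-1 sample, in a class where 22.9% of all genes tested had groups without overlap. The log2 difference was 1.32 (SE 0.32), a 2.50-fold higher level, with an edgeR adjusted p of 0.017. DESeq2 gave 1.37 with an adjusted p of 0.0736, and the call was lost without αPD-1 replicate 1 (1.21), αPD-1 replicate 3 (1.25) or corin replicate 1 (1.27).

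Outside naive-like clusters the Socs1 difference was 1.63 (edgeR adjusted p = 0.0357). Over all T cells of the Treg-like clusters, which in corin replicate 1 included 27 CD8 T and 18 CD4 T cells, Socs1 was at 65.2, 66.1 and 33.1 CPM with αPD-1 and 102, 136 and 124 CPM with αPD-1 + corin. By cluster names the CD4 T difference was 1.21 and did not pass (edgeR adjusted p = 0.0793). The difference from the effect in CD8 T cells was 1.14 (SE 0.36, edgeR adjusted p = 0.447). The part of cell makeup in the Socs1 result was not tested.

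Monocytes/macrophages had 54.4, 57.6 and 40.8 CPM of Socs1 with αPD-1 and 19.2, 42.5 and 82.9 CPM with αPD-1 + corin (0.03, SE 0.43, edgeR adjusted p = 0.976). As with Irf1, corin replicate 1 was the lowest and corin replicate 3 the highest sample. Dendritic cells followed with 68.9, 33.7 and 59.8 CPM against 32.1, 82.4 and 98.9 CPM. Melanoma cells were lowest, at 1.26 to 10.9 CPM.

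**Figure D5:**
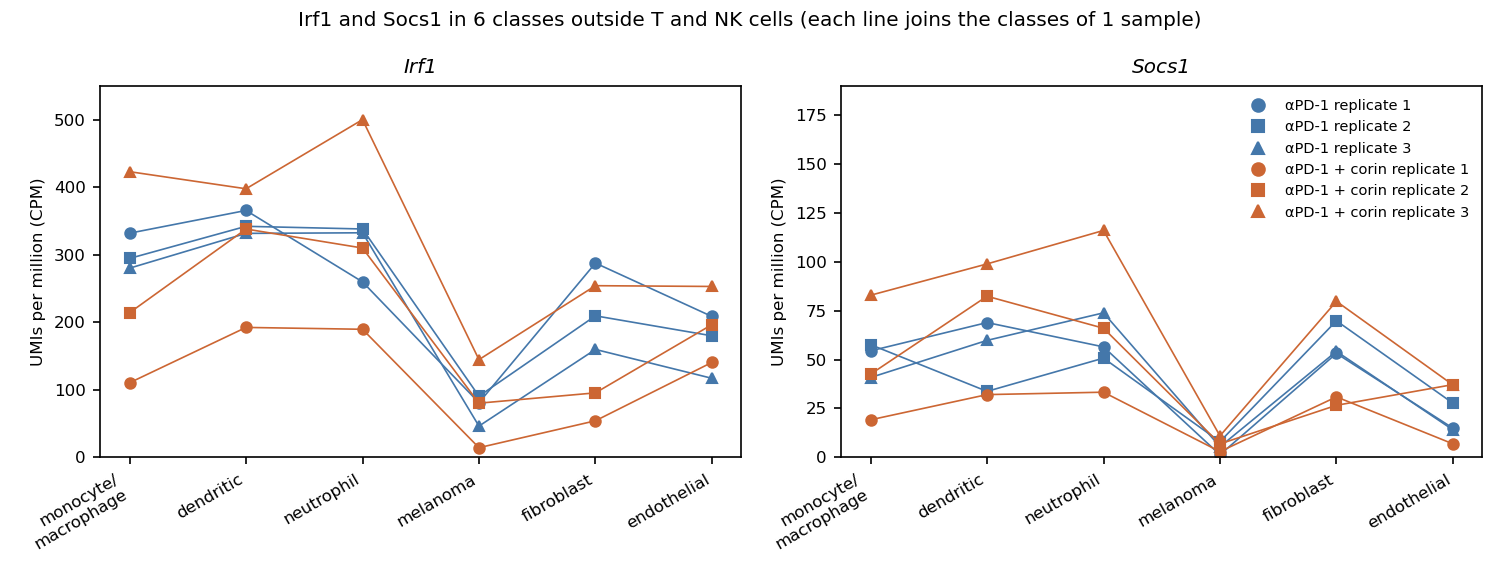
Levels of Irf1 and Socs1 (CPM, linear axes) in 6 cell classes outside T and NK cells, with a line for each sample, αPD-1 in blue and αPD-1 + corin in orange. Corin replicate 1 was lowest and corin replicate 3 highest for both genes in monocytes/macrophages and dendritic cells, with αPD-1 samples between them.

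The genes known to be induced by IFN-γ were read from a list of 45, chosen by name. In CD8 T cells 2 of the 37 tested passed, both lower with corin, against 5.31% of all genes, and DESeq2 called 1. The genes past the edgeR threshold were Irgm2, an immunity-related GTPase (58.9, 43.2 and 29.1 CPM against 0, 6.49 and 16.2 CPM; log2 difference -1.71, SE 0.35, edgeR adjusted p = 0.00915), and H2-Aa, an MHC class II chain of antigen-presenting cells (-0.80, adjusted p = 0.0304). Summed B cell markers in the same CD8 T sums were at 206, 172 and 248 CPM with αPD-1 and 86.0, 89.5 and 4.39 CPM with αPD-1 + corin, and their part in these calls was not tested. Naive-like clusters also held fewer of the CD8 T cells with corin, and the part of that makeup in the Irgm2 and H2-Aa calls was not tested. Fibroblasts had 1 of 38, higher against 0.984% of all genes, Nos2, the inducible nitric oxide synthase (55.0, 41.4 and 11.4 CPM against 153, 258 and 202 CPM; log2 difference 2.42, edgeR adjusted p = 0.0198). Macrophage markers summed to 189, 64.7 and 77.0 CPM in the fibroblasts with αPD-1 and to 309.5, 335 and 455 CPM with αPD-1 + corin, and their part in the Nos2 call was not tested. In the other 5 classes edgeR called 0 of 28 to 44, with 0 to 9 at an unadjusted p under 0.05 and 0 or 1 by DESeq2.

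Across that list the corin samples stood apart from each other in tumor and myeloid cells. In monocytes/macrophages 34 of 44 genes (77.3%) were lowest in corin replicate 1 and highest in corin replicate 3 of the 6 samples, against 4.80% of all genes tested. In melanoma cells 26 of 33 (78.8%) were, against 1.92%. The counts were 14 of 43 (32.6%) in dendritic cells against 3.79%, 13 of 38 (34.2%) in fibroblasts against 1.67%, 3 of 37 (8.11%) in CD8 T cells against 3.10%, 4 of 33 (12.1%) in CD4 T cells against 6.11% and 2 of 28 (7.14%) in NK cells against 2.46%. This order was looked for after the values of Irf1 were seen and is a description of these libraries. The level of Ifng over all immune cells had the same lowest and highest sample.

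Cxcl9, a chemokine that draws CXCR3-bearing T cells, was at 215, 350 and 124 CPM in monocytes/macrophages with αPD-1 and at 11.2, 173 and 487 CPM with αPD-1 + corin. Cxcl10, its close relative, was at 412, 414 and 375 CPM against 95.1, 291 and 510 CPM. Cd274, which encodes the PD-1 ligand PD-L1, was at 265, 220 and 189 CPM against 95.9, 212 and 376 CPM. All 3 had corin replicate 1 lowest and corin replicate 3 highest, and none passed the treatment test there.

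None of the 9 genes of the JAK and STAT list passed in any of the 7 classes, 0 of 55 tests by edgeR, with 9 at an unadjusted p under 0.05 and 0 by DESeq2. Their medians in CD8 and CD4 T cells were -0.24 and -0.15, beside 0.01 and 0.00 for all genes tested.

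Genes that act upstream of Ifng were read from a list of 19. In CD8 T cells 3 of the 12 tested rose with corin, against 1.57% of all genes, and the list's median was 0.43. DESeq2 called 1 of the 12. The genes past the edgeR threshold were Il12rb2, a chain of the receptor for interleukin-12 (22.4, 13.9 and 23.2 CPM against 43.0, 35.0 and 34.0 CPM; 0.93, edgeR adjusted p = 0.0351), Il18rap, a chain of the interleukin-18 receptor (0.79, adjusted p = 0.0206), and Il2rb, a chain of the interleukin-2 and interleukin-15 receptors (0.56, adjusted p = 0.0276). Outside naive-like clusters edgeR called 5 genes of all in CD8 T cells, against 568 with those clusters. Il2rb also rose in CD4 T cells, 1 of 8 tested against 1.9% of all genes (0.94, edgeR adjusted p = 0.0164). Tbx21, the T-bet transcription factor that drives Ifng, was at 80.4, 100 and 98.8 CPM in CD8 T cells against 123, 113 and 148 CPM and did not pass (0.55, SE 0.16, edgeR adjusted p = 0.0623). In the other 5 classes edgeR called 0 members of the list, with 8 at an unadjusted p under 0.05 and 2 by DESeq2.

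Of 13 negative regulators beside Socs1, 2 of the 10 tested in CD8 T cells fell, against 5.31% of all genes, and DESeq2 called 1 of the 10. Usp18, an inhibitor of type I interferon signalling, was at 38.4, 37.7 and 32.5 CPM with αPD-1 and 6.14, 11.7 and 12.1 CPM with αPD-1 + corin (-1.59, SE 0.25, edgeR adjusted p = 0.00159). Pias1, a SUMO ligase, fell by 0.84 (log2, SE 0.19) with an edgeR adjusted p of 0.0149. Naive-like clusters held fewer of the CD8 T cells with corin, and outside them few genes of all kept a call. The part of cluster makeup in the Usp18 and Pias1 calls was not tested. In the other 6 classes edgeR called 0, with 8 at an unadjusted p under 0.05 and 0 by DESeq2, and receptors and ligands of other interferons held 0 calls of 21 tests, with 2 at an unadjusted p under 0.05 and 0 by DESeq2.

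Ranked over 8 classes by mean log2(CPM + 10), Ifng stood highest in NK cells, then CD8 T cells (difference 0.01), CD4 T cells (1.57 below CD8 T cells) and dendritic cells (2.06 below CD4 T cells). Ifngr1 was ordered NK, CD4 T, CD8 T, dendritic, monocyte/macrophage, fibroblast, plasmacytoid dendritic and melanoma cells. Ifngr2 was highest in monocytes/macrophages and lowest in NK cells. Melanoma cells were last for the 6 members other than Ifngr2.

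No neighbouring pair of classes differed past the threshold for any member when adjusted over the 7 pairs of that member. The smallest two-sided exact sign-flip permutation p over 6 samples is 0.03125, and the smallest Benjamini-Hochberg p was 0.0729. Over 7 pairs the adjusted p falls under the threshold only where several pairs reach 0.03125, so a pair by itself could not pass. Among the pairs in which the higher class led in 6 of 6 samples were dendritic cells over monocytes/macrophages for Ifngr1 (0.51 on the log2 scale) and NK over CD4 T cells for Jak1 (0.73).

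The genes most like each member were sought over 72 sums of class and sample, as a description over 9552 genes in sums that share libraries. Ifng went with Nkg7 (Pearson r 0.965), Cst7 (0.946) and Il2rb (0.945), and Ifngr1 with AW112010 (0.904), Hopx (0.887) and Il18rap (0.880). Ifngr2 went with Atrnl1 (0.840), Marcks (0.817) and Acvrl1 (0.799). For Jak1 the nearest were Gimap5, 4932438A13Rik and Nsd3 (0.861 to 0.866), and for Jak2 Nfkb1, Relb and Ptger4 (0.707 to 0.776). Irf1 went with Sp110 (0.824), H2-Q4 (0.821) and H2-T23 (0.816), and Socs1 with Tnfaip3 (0.810), Junb (0.801) and Zfp36l2 (0.788).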

How the data were processed

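Single-cell RNA-Seq of 6 samples was measured with 5′ gene expression libraries. The authors deposited raw UMI counts per gene and barcode, aligned to GRCm39 and counted with Cell Ranger 8.0 per the submitters' processing notes, which also name Seurat 5.0.11. No values were normalized before deposit, and 0 columns were left unmapped.

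As in the study's methods, a barcode was kept at 600 to 4000 genes and no more than 10% of UMIs from mitochondrial genes. Doublets were scored per sample with Scrublet (scanpy 1.11.5). Its automatic threshold called 0 barcodes, so the highest scores were removed at 0.4% per 1000 barcodes, 2002 in all. Cells were clustered with Seurat 5.3.0 (SCTransform, sctransform 0.4.2, 3000 variable genes without marker and list genes, 20 components, resolution 0.8). Clusters were named from markers detected in at least 10% of cells and 1.5-fold above the other cells, and T cells were split by their Cd8a, Cd8b1 and Cd4 UMIs.

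Counts were summed per sample and class with at least 20 cells in every sample and tested with edgeR 4.0.16 (R 4.3.3, TMM, low-count filter, quasi-likelihood test, Benjamini-Hochberg adjustment over all genes of the class, threshold 0.05). Differences of effects between classes were fitted with the sample as a block. DESeq2 1.42.0 was an alternative. Single values were compared by exact permutation (scipy 1.17.1), whose smallest p for 3 against 3 samples is 0.1. The count test was checked on simulated data. The members, lists and classes were chosen with earlier results of these data known. From the lists, Tbx21, Cxcl9, Cxcl10 and Cd274 and up to 3 called genes in each direction per class are named. For CD8 T cells with Ifng, up to 8 genes in each direction with at least 50 CPM and 1 direction in every sample are named. Some items that these rules select are not reported here. The genes most like a member are the 3 with the highest Pearson correlation of log2(CPM + 10).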

Additional observations from a re-analysis of the deposited data

Results flagged for a closer look

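Between monocytes/macrophages and CD8 T cells the fitted treatment effects on Ifngr2 were 2.93 apart on the log2 scale (SE 0.57), with an edgeR adjusted p of 0.00316 for the interaction. In CD8 T cells the gene lay below the low-count filter, with 43 and 6 UMIs in the αPD-1 and corin groups, and it entered the comparison through its level in monocytes/macrophages, so the value does not test a change in CD8 T cells. Monocytes/macrophages had 83.6, 94.0 and 102 CPM with αPD-1 and 79.0, 80.3 and 86.3 CPM with αPD-1 + corin, and CD8 T cells had 14.0, 12.2 and 6.97 CPM and 6.14, 2.60 and 0.823 CPM. Without corin replicate 3 the difference was 1.74 (edgeR adjusted p = 0.331). Naive-like clusters, where Ifngr2 over all T cells was higher than in the other named T cell clusters with αPD-1, held 66.2%, 50.1% and 51.3% of CD8 T cells with αPD-1 and 17.2%, 23.1% and 10.1% with αPD-1 + corin, and their part in the difference was not tested.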

How the results depend on the processing

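Of 1008 values of single members under an alternative, 968 stayed on the same side of the threshold, 18 lost and 22 gained a call, and 0 changed sign with a call. Another 99 differed in sign where neither value passed. Ifngr1 in CD4 T cells lost its call by cluster names (0.75), and Socs1 there with DESeq2 (1.37) and by cluster names (1.21). The causes were not tested. The NK share of Ifng changed sign without thinning (0.219 percentage points), as did the immune-cell Ifng level over all deposited barcodes (-4.00). Among classes of at least 50 cells, neighbours passed in 3 pairs for Ifngr1 and 3 for Jak1, against 0. Those classes form fewer pairs to adjust over, which by itself lowers the adjusted p.

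Members called moved with no low-count filter to 2 in CD8 T, 4 in CD4 T and 2 in dendritic cells, with DESeq2 to 1 in CD4 T and 1 in dendritic cells, and by cluster names to 0 in CD4 T cells. In the difference of CD4 and CD8 T effects 1 passed with no filter and 1 with no upper gene limit. Between CD8 T cells with and without Ifng, 0 of 2 kept a call after thinning or outside naive-like clusters.

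The number of all genes called moved as follows. With no low-count filter it was 904 in CD8 T cells (568 before), 797 in monocytes/macrophages (29), 574 in dendritic cells (55), 97 in melanoma cells (0) and 560 in fibroblasts (142), and in the differences of effects 34 (4, CD4 and CD8 T cells), 52 (2, melanoma) and 216 (7, dendritic). With DESeq2 it was 236 in CD8 T, 79 in CD4 T (173), 2 in NK (20), 321 in monocytes/macrophages, 84 in dendritic cells, 7 in melanoma cells and 265 in fibroblasts. With no upper gene limit it was 177 in CD8 T cells, 110 in monocytes/macrophages, 104 in dendritic cells and 46 in fibroblasts, and 11, 47, 11 and 94 (209) in the differences for CD4 and CD8 T, melanoma, dendritic and monocyte/macrophage against CD8 T cells. Outside naive-like clusters it was 5 in CD8 T and 28 in CD4 T cells, and by cluster names 10 in CD4 T cells. No doublet removal gave 11 in monocytes/macrophages and 4 in melanoma cells. LogNormalize gave 7, 85, 3 and 79 in monocytes/macrophages, dendritic cells, melanoma cells and fibroblasts. Leaving out cells with UMIs of another lineage gave 13, 3 and 1 in monocytes/macrophages, dendritic and melanoma cells. A mitochondrial limit of 5% gave 52 in monocytes/macrophages, and a resolution of 1.2 gave 87 in dendritic cells. Monocyte-named clusters alone gave 85 and macrophage-named clusters alone 11, both chosen after seeing the data. Between CD8 T cells with and without Ifng, thinning left 282 of 961 and the cells outside naive-like clusters 72.

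Leaving out 1 sample at a time gave -6.26 to 2.91 points for the NK share, -29.7 to 82.1 CPM for immune-cell Ifng, 1.21 to 1.52 for Socs1 in CD4 T cells and 1.74 to 3.24 for the Ifngr2 difference of effects. Genes called ran from 160 to 649 in CD8 T, 72 to 217 in CD4 T, 1 to 59 in NK cells, 1 to 2388 in monocytes/macrophages, 13 to 559 in dendritic cells, 0 to 7 in melanoma cells and 22 to 919 in fibroblasts, the highest of the monocyte/macrophage, dendritic and fibroblast counts without corin replicate 3. In the differences of effects they ran from 0 to 12, 0 to 70, 0 to 538 and 125 to 295, and for cells with Ifng from 340 to 1116. Members called ran from 1 to 3 in CD4 T cells, from 0 to 2 in CD8 T, dendritic and fibroblast classes, monocytes/macrophages, the Ifngr2 comparison and the cells with Ifng, and from 0 to 1 in the CD4 T and dendritic differences.

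The labels do not say whether replicate numbers pair the samples, which were treated as unpaired. The 21 correlations of same-numbered deviations ran from -0.165 to 0.0645, which cannot exclude a shared batch. With the replicate block 102 genes were called in CD4 T and 22 in dendritic cells, and Ifng in CD4 T cells passed (1.70, edgeR adjusted p = 0.018). Not run for too few cells (1 to 19 in a sample) were CD8 T cells by cluster names, CD4 T cells with no upper limit, a 5% mitochondrial limit, a resolution of 0.4 or other-lineage cells left out, and fibroblasts with those cells left out. NK cells without doublet removal had no named cluster. Depth limits values from few cells, such as the 21 CD4 T cells of corin replicate 1 and the 12 to 14 cells in the smallest samples of neutrophils and endothelial cells.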
